A study of Mus musculus with 12 samples.

Results

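The genes described are 335 odorant receptor genes of the mouse that drew counted reads in libraries made from cultured hippocampal neurons. They are the rows of the total RNA table named Olfr followed by a number alone whose estimated counts add up to 100 or more over 6 libraries, which holds for 335 of 1116 such rows and of 49489 rows in all. That sum chose them and is given as a description. The study sequenced RNA from a pulldown aimed at Gas5, a long noncoding RNA, in primary neurons taken from mice at postnatal day 0 and grown for 16 days in culture. Total RNA was sequenced from 3 libraries called antisense and 3 called sense, with replicates numbered 1 to 3 in each. The labels name no strain, sex, genotype or treatment, leave it unstated whether the antisense or the sense libraries were the capture, and do not say whether replicates were separate cultures. P-values then measure only how far these libraries spread, which may be technical. Small RNA libraries of the same groups were not used here.

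Odorant receptors are the largest family of G protein-coupled receptors in the mouse. In the olfactory epithelium each sensory neuron transcribes a single receptor gene from a single allele, and the receptor signals through the G protein subunit made by Gnal, the adenylyl cyclase Adcy3 and a cyclic nucleotide-gated channel. The genes stand in clusters on many chromosomes, and their coding sequence usually lies in a single exon. Reads counted for a receptor gene are not evidence of receptor protein.

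All 335 genes have a position in the RefSeq table of assembly GRCm38.p6, where 334 are protein-coding and 1, Olfr1175, is a pseudogene. Their annotated spans had a median of 948 bases, and 277 of 335 were between 900 and 1100 bases, about the length of a receptor's coding sequence. Windows of 300 bases around the annotated start (250 before and 50 from it on) were at hand for 285 of the 335 genes in 286 windows. In 224 of these 286 windows (78.3%) the annotated start was itself a start codon, against 5.83% of the 32851 windows of all genes and 70.1% of the 658 windows of the other numbered Olfr genes. For most of these genes the table therefore gives the coding start, so the bases before it are not shown to be a promoter. The RefSeq sequence from 10 bases before the start to 50 bases from it on is printed below for the 3 genes with the smallest p in each direction among those with a window, since the comparison turns on them, with a start codon at the annotated start in capitals. The first 3 were higher in antisense and the last 3 lower.
Olfr1459, chr19:13146608-13146667, minus strand: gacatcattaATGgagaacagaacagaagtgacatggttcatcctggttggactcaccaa
Olfr1437, chr19:12325017-12325076, minus strand: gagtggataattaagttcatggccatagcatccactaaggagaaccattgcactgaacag
Olfr804, chr10:129704870-129704929, plus strand: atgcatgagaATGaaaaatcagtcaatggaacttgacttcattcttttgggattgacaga
Olfr769, chr10:129112374-129112433, minus strand: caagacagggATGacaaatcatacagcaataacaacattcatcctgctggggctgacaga
Olfr393, chr11:73848074-73848133, minus strand: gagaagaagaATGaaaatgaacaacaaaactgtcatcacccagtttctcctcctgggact
Olfr982, chr9:40074287-40074346, plus strand: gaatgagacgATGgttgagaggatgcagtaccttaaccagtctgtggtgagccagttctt
The annotated start was a start codon in each of these except Olfr1437, whose span of 3180 bases is longer than a coding sequence.

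Reads were counted for 730 of the 1116 numbered rows. The other 386 had no count in any library, and of the 730, 395 stayed below the sum of 100 and 335 reached it. Just inside the threshold stood Olfr295 at a sum of 100.6, Olfr1490 at 101.4 and Olfr71 at 102.3 counts, and just outside it Olfr1378 at 98.4, Olfr1274 at 96.1 and Olfr55 at 95.6. Within the 335, 193 genes had 100 or more counts in each group, 56 in antisense alone, 8 in sense alone and 78 in neither group alone. The lowest sum of a gene over a group was 26.7 counts in antisense and 9.02 in sense. All 335 had a count in every library and all passed the filter on low counts.

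As a share of the counts outside Gas5, the 335 genes together overlapped between the groups. Gas5 itself held 9.71%, 14.2% and 10.8% of the counts in antisense replicates 1 to 3 and 57.1%, 32.7% and 46.1% in sense, from totals of 5775052 to 10424167 counts per library, a log2 fold change of -2.78 with SE 0.286 (adjusted p = 3.76e-06 by edgeR). The receptor genes held 1.06%, 1.004% and 1.16% of all counts in antisense and 0.457%, 0.894% and 0.606% in sense, so the groups did not overlap on that scale. Of the counts outside Gas5 they held 1.17%, 1.17% and 1.30% in antisense and 1.06%, 1.33% and 1.12% in sense. On that scale the means were 1.21% ± 0.0752 and 1.17% ± 0.138 (SD, n = 3 each) and the groups overlapped, with sense replicate 2 the highest of all 6 libraries and sense replicate 1 the lowest. Single genes were ranked within the sense group in CPM, counts scaled per library with edgeR's TMM factors. Of the 335, 208 had their highest sense value in replicate 2. The lowest sense value was in replicate 1 for 170 and in replicate 3 for 127. This order was not counted over all tested genes, so it is not shown to be particular to receptor genes. Gas5 took its largest share in sense replicate 1 and its smallest sense share in replicate 2, and its part in this order was not tested. In these bulk pulldown libraries fewer cells of a type, less RNA per cell and lower recovery in the pulldown cannot be told apart.

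**Figure D1:**
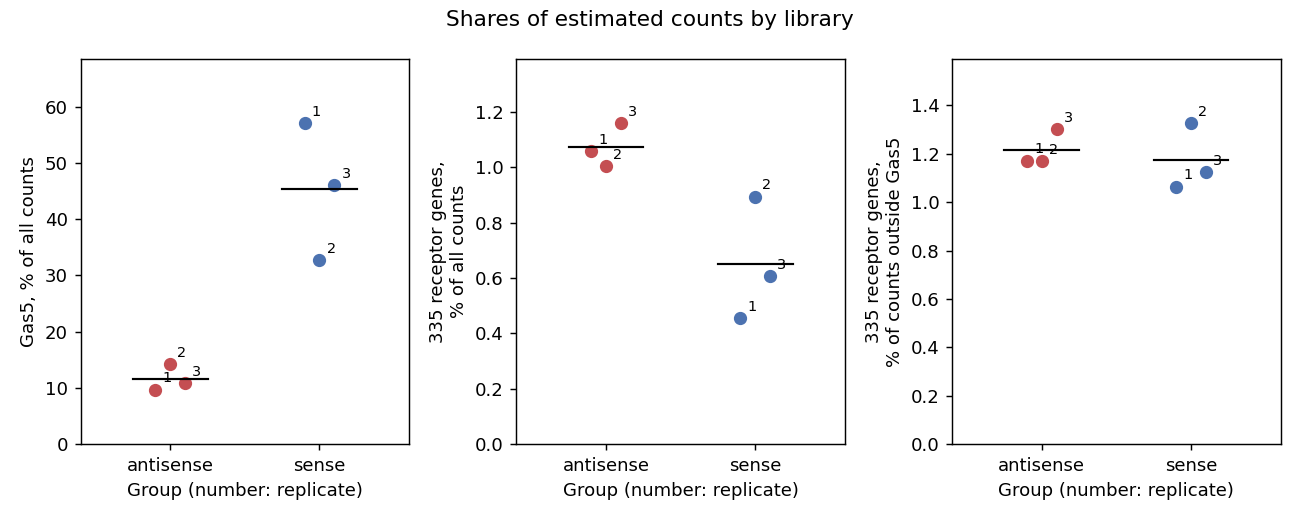
Each point is a library, numbered by replicate, and each line a group mean (n = 3); the y axes give percent of estimated counts for Gas5, for the 335 receptor genes among all counts, and for the receptor genes among counts outside Gas5. The receptor share of all counts is lower in each sense library, while outside Gas5 the groups overlap between 1.06% and 1.33%.

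Marker genes of the olfactory epithelium had no counts or few in the same libraries. Of 12 epithelium markers, 7 had no count in any library: S100a5, Umodl1, Cyp2g1, Cyp2a5, Sult1c1, Obp1a and Obp2a. Over the 6 libraries Omp, the marker of mature olfactory sensory neurons, had 85 counts, Stoml3 had 70.0, Trp63 had 64, the immature sensory neuron marker Gng8 had 18 and the basal cell keratin Krt5 had 5. The 12 genes together stood at 5.52 to 6.84 CPM in antisense libraries and 4.27 to 6.85 in sense, against 8091 to 8980 and 7528 to 9027 CPM for the 335 receptor genes. Trace amine-associated receptors, the other main receptor family of olfactory sensory neurons, were listed at 0 for all 15 genes in all libraries. Markers of the labelled neurons were present: 10 of 10 neuron markers were tested, summing to 1018 to 1289 CPM in antisense libraries and 1313 to 1678 in sense. Of the neuron markers Camk2a passed in edgeR, at a log2 fold change of -0.51 with SE 0.126 (adjusted p = 0.00791 by edgeR), and the median of the 10 was -0.35. In DESeq2 Camk2a and Map2 passed (adjusted p = 0.00108 and 0.0242). On library totals alone, Camk2a turned to 0.24 and that median to 0.39. Markers of astrocytes (879 to 1272 CPM over 5 genes), the oligodendrocyte lineage (276 to 419 CPM over 5) and microglia (13.4 to 21.6 CPM over 5) were also counted. Their median log2 fold changes were -0.23, -0.33 and 0.51 on the TMM scale and 0.51, 0.42 and 1.23 on library totals. Of these, Aldh1l1 of the astrocytes (-0.46, but 0.27 on library totals) and Itgam of the microglia (-0.94, and -0.25 on library totals) were lower in antisense by edgeR on the TMM scale, but neither passed in DESeq2 (adjusted p = 0.0595 and 0.140). P2ry12 of the microglia was higher in both tools, with 33, 28 and 30 counts in antisense against 0, 0 and 2 in sense, and 0 oligodendrocyte genes of 5 passed in edgeR or DESeq2, with 3 at an unadjusted p under 0.05 in edgeR. The part of these cells in the receptor counts was not tested.

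Odorant transduction genes gave no call. Of 16 genes, 15 had a row, 11 were tested and 0 passed in edgeR or DESeq2, with 0 at an unadjusted p under 0.05 in edgeR, a mark that 32.9% of all tested genes met. Their median log2 fold change, antisense minus sense, was -0.13, against -0.01 over all 20049 tested genes. The log2 fold changes of smallest p were 0.37 (SE 0.185) for Pde1c, a calmodulin-dependent phosphodiesterase, -0.31 (SE 0.159) for Gnas, which makes the stimulatory G protein subunit, and -0.17 (SE 0.0893) for Slc24a4, the exchanger that clears calcium after an odour response. The channel genes Cnga2, Cnga4 and Ano2 had 3, 14 and 19 counts over the 6 libraries and were not tested. Cngb1 of the same list had 143 counts, with a log2 fold change of 0.57 with SE 0.360 (adjusted p = 0.300 by edgeR). On library totals alone it rose to 1.25 (edgeR adjusted p = 0.00677). Of 18 genes for receptor trafficking and receptor choice, 15 were tested and 0 passed in edgeR or DESeq2, with 3 at an unadjusted p under 0.05 (against the same 32.9%) and a median of -0.15. Those 3 were Ebf4, an Olf/Ebf transcription factor (-0.66, SE 0.258), Ldb1, the cofactor of Lhx2 (-0.24, SE 0.0974), and the histone methyltransferase gene Ehmt1 (-0.20, SE 0.0876). Rtp1 and Rtp2, whose proteins carry receptors to the cell surface, had 1 and 3 counts, while Reep1 of the same list had 922. All 3 tested epithelium genes, Omp, Stoml3 and Trp63, also missed the threshold in edgeR and DESeq2, at log2 fold changes of -0.07, 0.24 and 0.53. On library totals alone the medians of the transduction, trafficking and epithelium lists were 0.61, 0.57 and 0.96. On that scale 16 of their 29 tested genes (55.2%) were higher in edgeR, below the 63.9% of all tested genes.

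A list of 5 receptors described outside the nose, which is not complete, held none of the 335. Olfr78, the receptor for short-chain fatty acids and lactate of the carotid body and blood vessels, had 58.6 counts over the 6 libraries, from 2 in sense replicate 1 to 16.2 in antisense replicate 1. Olfr544 had 26.5, Olfr1393 had 16.3, and Olfr558 and Olfr16 had 1 count each. None of these 5 was tested at the minimum count of 10. Olfr544 had 8, 8.28 and 9.26 counts in antisense and 0, 1 and 0 in sense. The groups overlapped in the other 4.

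Receptors with a known ligand were among the 335, and were chosen for this paragraph after their values were seen. Olfr1440, the muscone receptor, stood at 21.98 ± 3.43 CPM in antisense against 22.9 ± 5.54 in sense (SD, n = 3 each), a log2 fold change of -0.06 with SE 0.170 (adjusted p = 0.839 by edgeR). Olfr2, also called I7 and known for its response to octanal, stood at 18.8 ± 1.57 CPM in antisense against 15.1 ± 2.96 in sense (SD, n = 3 each), a log2 fold change of 0.32 with SE 0.161 (adjusted p = 0.190 by edgeR). Olfr73, the eugenol receptor mOR-EG, had a log2 fold change of -0.38 with SE 0.183 (adjusted p = 0.167 by edgeR). Olfr160, also called M72, had a log2 fold change of 0.32 with SE 0.261 (adjusted p = 0.430 by edgeR), and Olfr1509, which responds to a thiol of male mouse urine, a log2 fold change of -0.10 with SE 0.353 (adjusted p = 0.886 by edgeR). None of these 5 passed the test. Olfr151, also called M71, was listed at 0 in all libraries, and Olfr17, also called P2, had 68.5 counts in all and was not among the 335.

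Between the groups, more receptor genes were higher in antisense than lower, as were more of all tested genes. Of the 335, 76 were higher (22.7%) and 34 lower (10.1%) in edgeR's quasi-likelihood test with Benjamini-Hochberg adjustment over all 20049 tested genes, and 225 did not pass. Over all tested genes 18.2% were higher and 4.35% lower, and over the 17374 tested genes with a sum of 100 or more, as the receptor genes have, 14.5% were higher and 4.88% lower. These shares stand side by side as a description, and no test compared them. The median log2 fold change was 0.17 over the 335, with quartiles at -0.22 and 0.61, against -0.01 over all tested genes. All 3 antisense libraries lay above all 3 sense libraries for 105 of the 335 (31.3%, against 23.4% of all tested genes), and the reverse held for 55 (16.4%, against 13.2%). The groups did not overlap in 75 of the 76 higher genes and in all 34 lower ones. Lack of overlap in a called gene is therefore no further support for its call. All 76 higher genes had a positive log2 fold change under each of 4 other scalings, but 17 of the 34 lower genes turned positive on library totals alone, which include Gas5. Fold changes in general rise on library totals, so higher genes could scarcely turn negative there and weakly lower genes turn positive. The contrast between higher and lower genes therefore says nothing about how firm the calls are. Library totals moved the median of all tested genes from -0.01 to 0.70 and gave 211 higher (63%) and 7 lower (2.09%) receptor genes, against 63.9% and 0.309% of all tested genes, so the higher share there is near that of all genes. Of the receptor calls 96.8% were higher on that scale and 69.1% on the TMM scale. Calls over all tested genes leaned further to antisense. They were 12804 higher and 62 lower on library totals, and 3658 and 873 on the TMM scale. A minimum count of 50 left 191 receptor genes tested, with 61 higher (31.9%, against 13.7% of all genes then tested) and 17 lower (8.90%, against 3.07%). DESeq2 called 54 higher (16.1%, against 14.2% of all genes) and 27 lower (8.06%, against 2.26%).

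**Figure D2:**
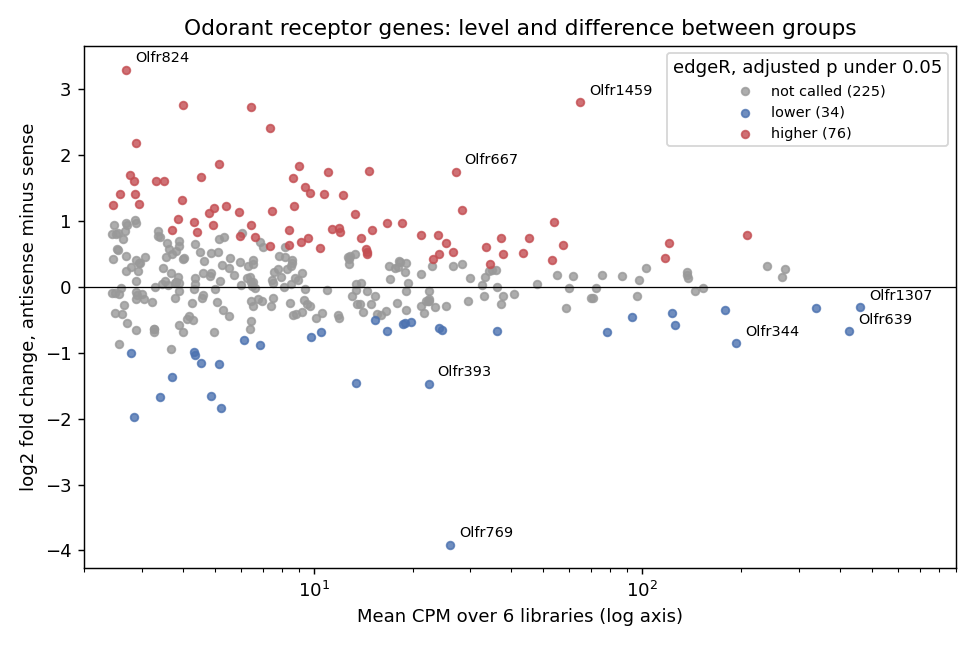
Each point is a receptor gene; the x axis gives mean CPM over 6 libraries on a log scale and the y axis the log2 fold change, antisense minus sense, with edgeR calls in colour. The 76 higher genes reach a log2 fold change of 3.29 and the 34 lower genes -3.91, and 47 of the 48 genes beyond 2-fold passed.

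Calls differed with the number of reads. Among the 156 genes with 100 to 300 summed counts 17.3% were higher and 7.69% lower, against 23.6% and 2.04% of all tested genes in that range. Among the 114 genes with 300 to 1000 counts 26.3% were higher and 10.5% lower, against 13.5% and 3.76%. Among the 39 genes with 1000 to 3000 counts 16 were higher and 1 lower (41.0% and 2.56%, against 8.55% and 6.29%). The order turned among the 26 genes with 3000 or more counts, where 3 were higher and 9 lower (11.5% and 34.6%, against 9.16% and 11.7%). The 3 were Olfr1336, Olfr539 and Olfr552, with log2 fold changes of 0.78, 0.67 and 0.43, and the 9 ranged from -0.85 for Olfr344 to -0.31 for Olfr1307.

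The largest changes exceeded 4-fold. Beyond that, 6 genes were higher (Olfr824, Olfr1459, Olfr1471, Olfr1437, Olfr1328 and Olfr1200) and 1 lower (Olfr769). Between 2-fold and 4-fold 29 more were higher and 11 lower. Of the genes beyond 4-fold, only Olfr1459 reached the threshold sum within each group (2583.4 counts in antisense, 301.4 in sense). The others were chosen mainly through counts of the group where they were higher. In antisense and sense, Olfr1471 had 159.4 and 18.8 counts, Olfr1437 255.4 and 30.7, and Olfr1328 284.1 and 42.7. Olfr1200 had 108.1 and 18.5, Olfr769 had 74.2 and 911.3, and Olfr824 had 121.8 over both groups. The same limit holds for some genes between 2-fold and 4-fold that are described below. In antisense and sense, Olfr954 had 319.6 and 89.3 counts and Olfr1380 184.6 and 40.8. Fold changes and p-values of such genes are a description of genes chosen partly through them. The median log2 fold change was 0.97 over the 76 higher genes and -0.72 over the 34 lower ones. Olfr322 was the gene beyond 2-fold that missed the threshold, at a log2 fold change of 1.01 with SE 0.358 (adjusted p = 0.0579 by edgeR).

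Olfr1459, on chromosome 19 from 13145734 to 13146657, had the smallest p of the 335. Its values were 108, 114 and 117 CPM in antisense replicates 1 to 3 and 14.5, 17.9 and 16.3 CPM in sense replicates 1 to 3. The lowest antisense library lay far above the highest sense library, and the means were 113 ± 4.70 CPM in antisense against 16.2 ± 1.69 in sense (SD, n = 3 each), 6.95-fold apart with a log2 fold change of 2.80 with SE 0.108 (adjusted p = 4.46e-10 by edgeR). In the authors' deposited table Olfr1459 has a log2 fold change of -2.80 (adjusted p = 4.34e-84) with sense over antisense, as the sign of Gas5 there (2.78) shows.

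Olfr769, on chromosome 10 from 129111485 to 129112423, went the other way and was the only receptor gene lower by over 4-fold. Its values were 2.24, 3.72 and 3.75 CPM in antisense replicates 1 to 3 and 41.1, 60.8 and 44.7 CPM in sense replicates 1 to 3, a log2 fold change of -3.91 with SE 0.207 (adjusted p = 8.09e-09 by edgeR). No antisense library reached 4 CPM and no sense library fell below 41 CPM. The authors' deposited table gives a log2 fold change of 3.96 (adjusted p = 1.24e-49), sense over antisense. Olfr767 of the same chromosome 10 cluster, named after its values were seen, did not pass, at 65.4 ± 3.88 CPM in antisense against 73.9 ± 5.82 in sense (SD, n = 3 each) and a log2 fold change of -0.18 with SE 0.0962 (adjusted p = 0.226 by edgeR).

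Among the other higher genes on chromosome 19 were Olfr1437 and Olfr1471. Olfr1437 had 10.1, 12.6 and 10.9 CPM in antisense against 1.11, 1.87 and 2.06 in sense, a log2 fold change of 2.73 with SE 0.269 (adjusted p = 2.52e-06 by edgeR). Olfr1471 had 7.10, 6.04 and 7.90 CPM in antisense against 0.632, 1.71 and 0.685 in sense, a log2 fold change of 2.76 with SE 0.359 (adjusted p = 3.05e-05 by edgeR). In each of them every antisense library lay above every sense library, and no sense library exceeded 2.06 CPM. Olfr824, on chromosome 10 from 130126108 to 130127055, had the largest log2 fold change, 3.29 with SE 0.423 (adjusted p = 2.67e-05 by edgeR), from 5.26, 4.88 and 4.56 CPM in antisense against 0.474, 0.779 and 0.171 in sense, so its sense values rest on a few reads. Olfr1328, on chromosome 4 from 118933899 to 118934840, had 10.1, 13.9 and 13.3 CPM in antisense against 1.11, 3.12 and 2.74 in sense, a log2 fold change of 2.41 with SE 0.292 (adjusted p = 1.57e-05 by edgeR). Its span overlaps Gm12865, a gene with 6 counts over all libraries.

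Other higher genes had more reads and smaller changes. Olfr667, on chromosome 7 from 104916314 to 104917294 in the cluster of class I receptors, the type shared with fish, had 39.2, 37.2 and 48.8 CPM in antisense against 12.6, 14.2 and 10.3 in sense, a log2 fold change of 1.75 with SE 0.150 (adjusted p = 6.87e-07 by edgeR). Olfr648 of the same cluster had 36.6, 38.7 and 42.2 CPM in antisense against 17.2, 19.5 and 15.8 in sense, a log2 fold change of 1.16 with SE 0.123 (adjusted p = 4.82e-06 by edgeR). For these genes too the groups did not overlap. Olfr804, on chromosome 10 from 129704880 to 129705824, had 66.7, 70.8 and 77.03 CPM in antisense against 33.8, 37.9 and 37.00 in sense, a log2 fold change of 0.98 with SE 0.100 (adjusted p = 3.48e-06 by edgeR). Olfr1336, on chromosome 7 from 6460226 to 6461455, was the most counted of the higher genes, with 263, 255 and 275 CPM in antisense against 136, 175 and 150.2 in sense, a log2 fold change of 0.78 with SE 0.102 (adjusted p = 2.90e-05 by edgeR). Its lowest antisense library stood at 255 CPM and its highest sense library at 175 CPM.

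The remaining higher genes of smallest p lay on 5 chromosomes. Olfr414, on chromosome 1, had 18.5, 26.97 and 22.8 CPM in antisense against 8.85, 5.14 and 6.17 in sense, a log2 fold change of 1.76 with SE 0.207 (adjusted p = 1.23e-05 by edgeR). On chromosome 9, Olfr147 had 15.3, 18.7 and 16.9 CPM in antisense against 5.22, 4.05 and 5.99 in sense, a log2 fold change of 1.74 with SE 0.194 (adjusted p = 7.76e-06 by edgeR), and Olfr954 had 12.5, 18.1 and 11.1 CPM in antisense against 5.53, 4.36 and 4.62 in sense, a log2 fold change of 1.52 with SE 0.231 (adjusted p = 1.21e-04 by edgeR). The spread within groups was widest in relative terms in the sense values of Olfr510, given last. On chromosome 2, Olfr1565 had 14.3, 17.98 and 21.03 CPM in antisense against 5.69, 7.32 and 7.36 in sense, a log2 fold change of 1.39 with SE 0.194 (adjusted p = 5.73e-05 by edgeR), and Olfr1157 had 9.99, 13.1 and 16.2 CPM in antisense against 3.16, 4.67 and 4.62 in sense, a log2 fold change of 1.65 with SE 0.242 (adjusted p = 8.55e-05 by edgeR). Olfr190, on chromosome 16, had 13.9, 17.5 and 15.4 CPM in antisense against 4.74, 6.08 and 6.85 in sense, a log2 fold change of 1.41 with SE 0.193 (adjusted p = 4.89e-05 by edgeR). Olfr510, on chromosome 7, had 14.3, 10.5 and 17.6 CPM in antisense against 2.21, 4.67 and 4.97 in sense, a log2 fold change of 1.84 with SE 0.277 (adjusted p = 1.10e-04 by edgeR). In each of these 7 genes the groups did not overlap, as in nearly all called genes.

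Lower in antisense, after Olfr769, were genes of several clusters. Olfr393, on chromosome 11 from 73847185 to 73848123, had 8.94, 13.2 and 13.4 CPM in antisense against 32.3, 33.7 and 32.7 in sense, a log2 fold change of -1.47 with SE 0.150 (adjusted p = 3.59e-06 by edgeR). Olfr982, on chromosome 9 from 40074297 to 40075262, had 6.97, 7.71 and 6.83 CPM in antisense against 20.6, 20.4 and 17.98 in sense, a log2 fold change of -1.45 with SE 0.158 (adjusted p = 6.34e-06 by edgeR). Olfr344, on chromosome 2 from 36568600 to 36569529, had 141, 127 and 146 CPM in antisense against 225, 281 and 241 in sense, a log2 fold change of -0.85 with SE 0.102 (adjusted p = 1.49e-05 by edgeR). In all 3 every sense library lay above every antisense library. Scaled by library totals alone, the log2 fold change was -0.77 for Olfr393, -0.74 for Olfr982 and -0.17 for Olfr344, which then missed the threshold (edgeR adjusted p = 0.494), and -3.25 for Olfr769.

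**Figure D3:**
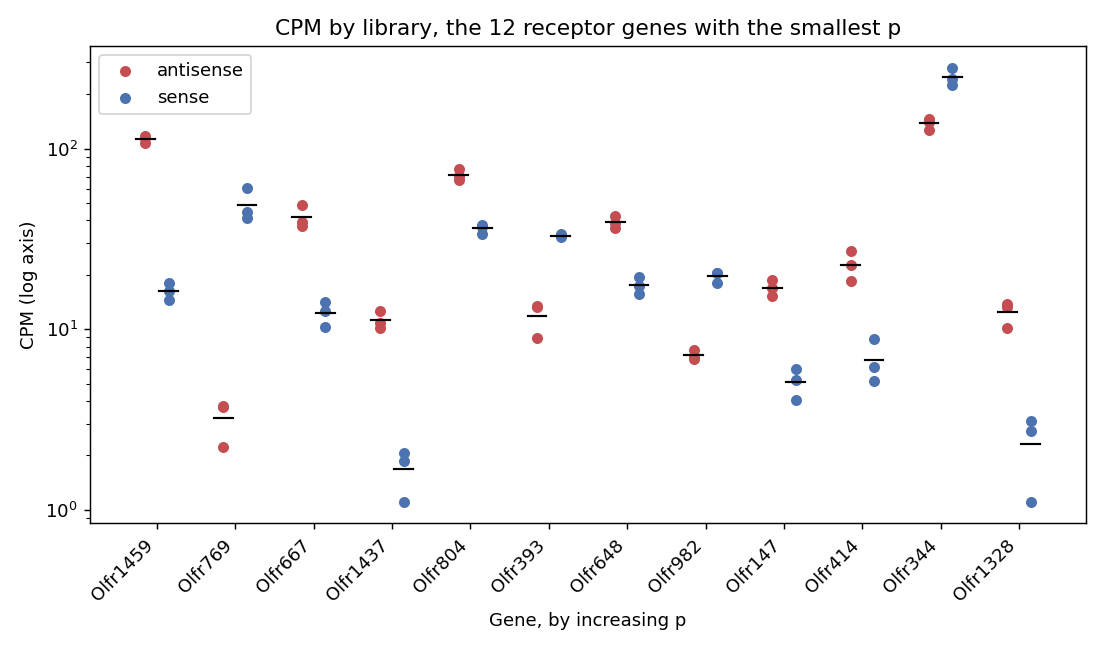
CPM on a log axis for the 12 receptor genes with the smallest p, with a point for each of the 3 antisense and 3 sense libraries and a line at each group mean. The groups do not overlap in any of the 12, which follows closely from picking them by p. Olfr769, Olfr393, Olfr982 and Olfr344 are the genes lower in antisense.

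The 5 receptor genes with the highest mean CPM differed by less than 2-fold between the groups. CPM here is not divided by transcript length, which the files do not give, so it does not rank expression between genes. Olfr1307, on chromosome 2 from 111944516 to 111945454, had 395, 417 and 426 CPM in antisense against 471, 549 and 509.7 in sense, a log2 fold change of -0.31 with SE 0.0907 (adjusted p = 0.0235 by edgeR). Olfr639, on chromosome 7 from 104011750 to 104012700, had 317, 308 and 361 CPM in antisense against 505, 585 and 487 in sense, a log2 fold change of -0.68 with SE 0.101 (adjusted p = 9.97e-05 by edgeR). Olfr635, in the same cluster, had 294, 317 and 291 CPM in antisense against 361, 392 and 379.9 in sense, a log2 fold change of -0.33 with SE 0.0868 (adjusted p = 0.0119 by edgeR). These 3 were lower in antisense on the TMM scale with no overlap between groups, and on library totals alone their log2 fold changes were 0.38, 0.010 and 0.37. Olfr1307 also lost the call without antisense replicate 1 (edgeR adjusted p = 0.116), sense replicate 2 (0.0739) or sense replicate 3 (0.0702), and Olfr635 without antisense replicate 1 (0.0633). Olfr46, on chromosome 7 from 140601340 to 140611124, had 286, 308 and 300.2 CPM in antisense against 226, 291 and 225 in sense, and Olfr1247, on chromosome 2 from 89609089 to 89610153, had 267, 267 and 306 CPM in antisense against 228, 275 and 258 in sense. Neither passed, with log2 fold changes of 0.27 with SE 0.107 (adjusted p = 0.0919 by edgeR) and 0.14 with SE 0.0989 (adjusted p = 0.354 by edgeR), and their groups overlapped. The 5 genes held 18.8% to 19.9% of the receptor counts in antisense libraries and 23.2% to 23.8% in sense.

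The 335 genes lay on 17 chromosomes in 39 clusters. A cluster ends at a gap of over 1000000 bases to the next RefSeq gene whose name begins with Olfr, numbered alone or not. Chromosome 2 held 91 of them, chromosome 7 held 66 and chromosome 9 held 45. In relation to the numbered Olfr genes of each chromosome these were 31.5%, 27.7% and 33.8%. The largest cluster, on chromosome 2 from 85330967 to 90401674, held 66 of the 335, with 15 higher, 4 lower and a median log2 fold change of 0.14. The class I cluster, on chromosome 7 from 102476773 to 105369317, held 37, with 7 higher, 6 lower and a median of 0.08. A chromosome 9 cluster (37711348 to 40188094) held 33, with 8 higher and 4 lower, and a chromosome 10 cluster (128989914 to 130211128) held 22, with 5 higher and 4 lower, among them the highest and the lowest fold change of all, Olfr824 and Olfr769. On chromosome 19 the 16 genes of a single cluster had 6 higher, 1 lower and a median of 0.55. No test compared the clusters.

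Genes that follow each other on a chromosome did not always share a direction. Of 296 pairs of consecutive genes of the 335 within a cluster, 12 were higher in both, 5 lower in both, and in 12 a higher gene stood beside a lower one. On chromosome 10, Olfr822 (-1.66) lay 50758 bases from Olfr824 (3.29). On chromosome 2, Olfr341 (1.15) lay between Olfr338 (-0.68) and Olfr344 (-0.85). On chromosome 9, Olfr982 (-1.45) lay 25282 bases from Olfr984 (0.62). These values are log2 fold changes, antisense minus sense, of genes that each passed the test.

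**Figure D4:**
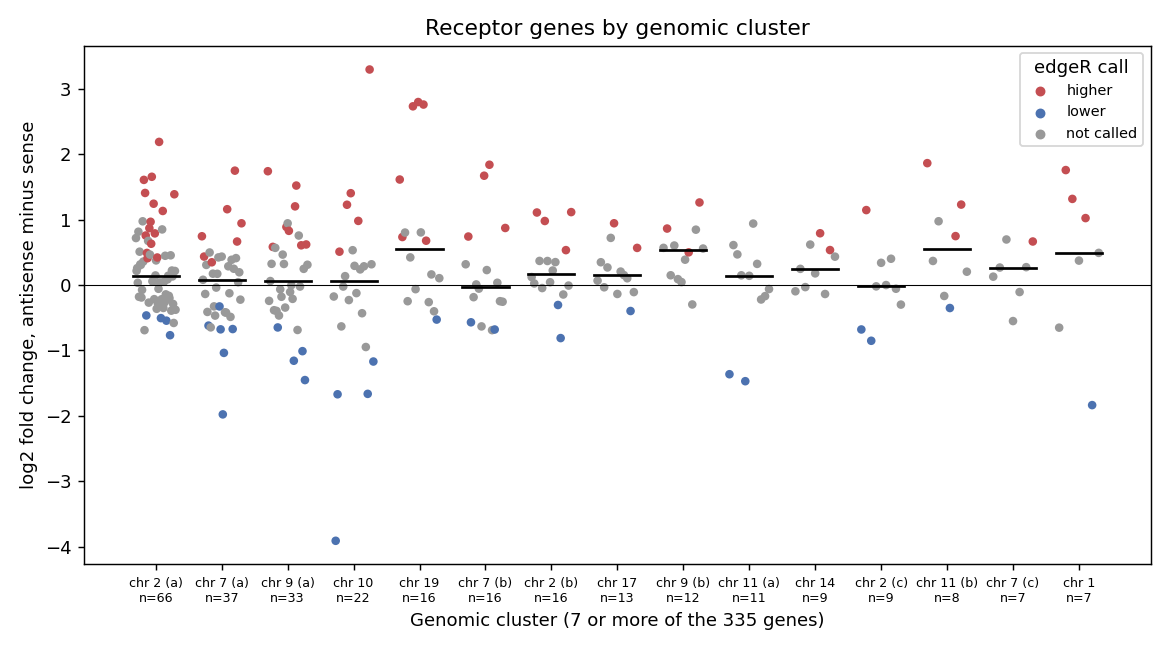
Each point is a receptor gene, grouped by genomic cluster for the 15 clusters with 7 or more of the 335 genes; the y axis is the log2 fold change, antisense minus sense, lines are cluster medians and colours are edgeR calls. Higher and lower genes occur together in most of these clusters, and the chromosome 10 cluster holds both extremes, 3.29 and -3.91.

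Few of the receptor genes overlap another annotated gene. Of the 335 spans, 10 overlapped another RefSeq gene and 0 overlapped a gene that passed the filter on low counts. The partners with a row were all at 8.03 counts or fewer over the 6 libraries, such as Nlrp14 (7 counts), which overlaps Olfr715 and Olfr716. The transcript models behind the counts were not at hand, and they may be longer than these spans.

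Most library values of the receptor genes were fractions of reads. Salmon, the counting tool named in the submitters' processing notes, divides a read that matches several transcripts among them, and counts then need not be whole. Of the values above 0 of the 335 genes, 99.2% were not whole numbers (further than 0.0005 from one), against 63.1% over all rows and 73.9% for the numbered Olfr rows under 100 counts. With the number of reads held alike, the share was 98.5% for receptor genes and 63.8% for all other rows at 100 to 300 counts, and 100% and 81.2% at 1000 to 3000 counts. Counts of these genes are therefore uncertain where reads could match more than 1 transcript. The median coefficient of variation of CPM between replicates was 15.03% in antisense and 17.4% in sense for the 335 genes. For the 17039 other tested genes with a sum of 100 or more it was 11.6% and 12.4%. The number of reads was not held alike in these medians, and a link of the spread to shared reads was not tested.

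**Figure D5:**
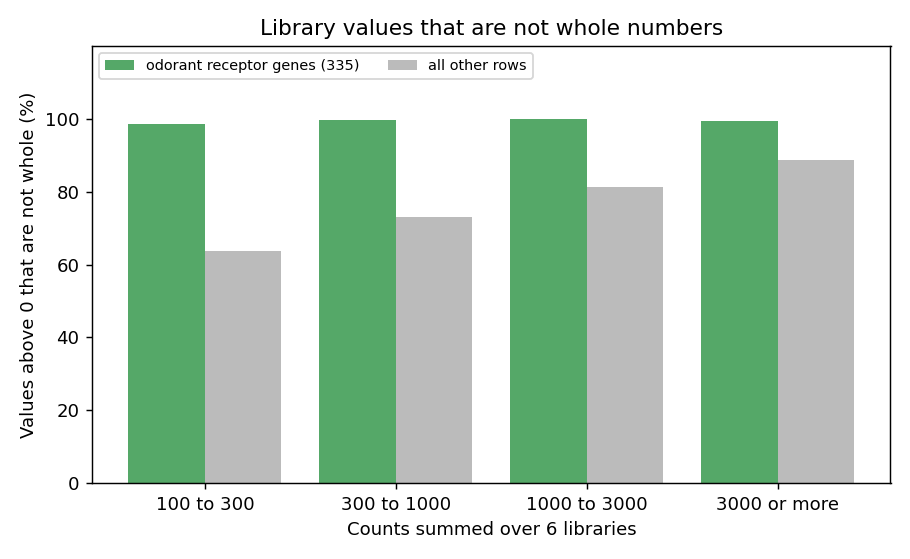
Bars give the percent of library values above 0 that are not whole numbers, for the 335 receptor genes and for all other rows, in 4 ranges of counts summed over 6 libraries. The receptor bars stand between 98.5% and 100% in every range, while the other rows rise from 63.8% to 88.6%.

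Some receptor genes have a start window much like that of another Olfr gene. Over the 285 genes with a 300-base window the most similar window of another numbered Olfr gene differed by a median of 132 edits (substituted, inserted or deleted bases), and 14 of the 285 had another gene's window within 30 edits. In 6 of these 14 the other gene had no count in any library, in 6 it was among the 335, and in 2 it had fewer than 100 counts. Olfr1565 and Olfr1506 have identical windows, and so do Olfr596 and Olfr603. Olfr1565 had 405.6 counts in antisense and 126.2 in sense and Olfr596 had 355.1 and 205.8, while Olfr1506 and Olfr603 were listed at 0 throughout. How alike the transcripts behind the counts are was not tested, and values of such genes are uncertain where their reads could be shared.

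The closest pair with both genes among the 335 was Olfr1380 and Olfr1381 on chromosome 11. Their windows, from RefSeq (GRCm38.p6), are shown because they differ at few bases while only the first gene passed the test, and capitals mark the bases that differ in the alignment of the 2 windows (6 substitutions and 10 bases in gaps).
Olfr1380, chr11:49563673-49563972, plus strand: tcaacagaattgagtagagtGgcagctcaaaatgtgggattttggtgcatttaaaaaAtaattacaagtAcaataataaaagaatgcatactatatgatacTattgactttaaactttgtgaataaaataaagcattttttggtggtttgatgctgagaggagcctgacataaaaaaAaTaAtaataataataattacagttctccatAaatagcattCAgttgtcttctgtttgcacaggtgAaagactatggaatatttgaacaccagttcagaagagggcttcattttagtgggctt
Olfr1381, chr11:49551499-49551798, plus strand: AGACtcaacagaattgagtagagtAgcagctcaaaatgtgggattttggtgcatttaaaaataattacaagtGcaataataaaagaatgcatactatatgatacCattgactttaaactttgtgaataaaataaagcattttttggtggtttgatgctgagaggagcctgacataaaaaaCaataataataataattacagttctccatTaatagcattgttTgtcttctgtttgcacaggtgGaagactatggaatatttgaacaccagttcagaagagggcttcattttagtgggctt
Olfr1380 stood at 8.08 ± 0.769 CPM in antisense against 2.22 ± 0.855 in sense (SD, n = 3 each), a log2 fold change of 1.86 with SE 0.291 (adjusted p = 1.55e-04 by edgeR). Olfr1381 stood at 21.5 ± 1.79 CPM in antisense against 16.6 ± 3.29 in sense (SD, n = 3 each), a log2 fold change of 0.37 with SE 0.154 (adjusted p = 0.108 by edgeR). The difference between their fold changes was not tested.

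Part of the calls rested on single libraries. Of the 76 higher genes 47 passed whichever library was left out, and of the 34 lower genes 20 did. These shares were not computed over all called genes, so they show nothing particular to receptor genes. Higher genes were lost most often without sense replicate 1 or sense replicate 3 (19 genes each), and lower genes without antisense replicate 1 (11 genes). Of the 25 genes given here with all library values, 23 passed over all libraries. Of these, 21 passed whichever library was left out, the exceptions being Olfr1307 and Olfr635. Apart from the genes of highest mean CPM, the 25 were picked as called genes of smallest p over these same libraries. For genes so picked, passing without a library follows closely from the choice and is no further support for their calls. In the authors' deposited table, which holds a single row for 331 of the 335 genes, 52 were higher and 29 lower in antisense at an adjusted p under 0.05. The shares over all genes of the authors' comparison were not computed, so these counts have no background beside them.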

How the data were processed

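Total RNA was measured in 3 antisense and 3 sense libraries. The authors deposited estimated counts per gene symbol, which need not be whole. Per the submitters' processing notes, Salmon, DESeq and build GRCm38 were used; versions, index and strand setting are not given. The authors' deposited comparison table holds a mean normalized signal, log2 fold changes with standard errors, and p-values with adjusted p-values, and served only for values set side by side.

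Estimated counts were rounded, filtered with filterByExpr (minimum count 10), scaled by TMM and tested, antisense minus sense, with the quasi-likelihood F test of edgeR 4.0.16 (R 4.3.3), with Benjamini-Hochberg adjustment over 20049 genes at 0.05. An SE is the absolute log2 fold change divided by the root of F. Totals were 5775052 to 10424167 counts. The genes, lists and tests were chosen with earlier results of these data known. Library values are given for the 5 genes of highest mean CPM and for called genes by smallest p, 25 in all; of other lists up to 3 genes are named by p, and others named were chosen after their values were seen. Alternatives were other scalings, filters on low counts, DESeq2 1.42.0, a replicate block and leaving out each library. Positions and sequences are from RefSeq (GRCm38.p6). Small RNA files were not used.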

Additional observations from a re-analysis of the deposited data

How the results depend on the processing

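On the TMM scale 76 receptor genes were higher and 34 lower (22.7% and 10.1%, against 18.2% and 4.35% of all tested genes). Library totals alone gave 211 and 7 (63% and 2.09%, against 63.9% and 0.309% of all tested genes), of which 76 and 7 were also called on the TMM scale. A minimum count of 50 gave 61 and 17 of the 191 genes then tested (31.9% and 8.90%, against 13.7% and 3.07%), and DESeq2 gave 54 and 27 (16.1% and 8.06%, against 14.2% and 2.26%). Totals outside Gas5 with no TMM, chosen after the data were seen, gave 78 and 33 of the 335, against 17.4% and 3.85% of all genes then tested. Leaving out 1 library gave 57 to 90 higher (90 without sense replicate 2) and 23 to 36 lower (23 without antisense replicate 1) of the 335. Of all genes then tested 16.4% to 19% were higher and 2.33% to 5.24% lower. On library totals the log2 fold changes of Olfr1307 (0.38), Olfr639 (0.010) and Olfr635 (0.37) turned positive. No gene of the transduction, trafficking, epithelium, trace amine receptor and outside-the-nose lists passed in edgeR on the TMM scale at a minimum count of 10. On library totals 16 did, in DESeq2 1 did and with no filter on low counts 1 did (Olfr544 in each), and leaving out single libraries gave 0 to 1 (Gnas, without sense replicate 2). The cause of these shifts was not tested. Deviations from the group means correlated at 0.08, -0.10 and -0.01 between libraries of the same number, 1, 2 and 3, over 20049 genes. Between libraries of unlike number the values ranged from -0.18 to 0.18. With 3 libraries per group these values cannot show whether the libraries were paired. With a replicate block 71 of the 335 receptor genes were higher and 33 lower, against 17.1% and 3.47% of all tested genes. In that fit 0 genes of these lists passed. Small sums limit single genes: the lowest group sum was 9.02 counts.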

Other observations

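Receptor rows outside the 335 genes also drew reads. Of 293 Olfr rows whose names carry more than a number, 225 had no count, 68 had counts and 22 were tested, with 7 higher and 1 lower in antisense by edgeR (31.8% and 4.55%, against 18.2% and 4.35% of all tested genes). Olfr839-ps1 held 9766 counts over the 6 libraries and was lower, at 165 ± 6.19 CPM in antisense against 323 ± 12.4 in sense (SD, n = 3 each), a log2 fold change of -0.97 with SE 0.0865 (adjusted p = 1.01e-06 by edgeR). Olfr1372-ps1 held 3761 counts and was higher, at 120.4 ± 5.22 CPM against 54.2 ± 4.72, a log2 fold change of 1.15 with SE 0.0961 (adjusted p = 5.52e-07 by edgeR). These were chosen after their values were seen, as the most counted rows called in each direction. Of the 781 numbered rows under 100 counts, 67 were tested, with 17 higher and 1 lower (25.4% and 1.49%, against the same shares).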
